A study of Mus musculus with 6 samples.

Results

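The cytosolic ribosomal protein genes were followed in early glycogen-storing liver lesions and in the normal liver beside them. Members were the rows of the deposited count table whose symbol starts with Rpl or Rps and a digit, or with Rplp, or is Rpsa. Of 106 such rows, 10 S6 kinase names (Rps6k) and 7 numbered pseudogenes were left out, which gave 89 members of 25230 rows. They comprise 53 genes named for the large subunit and 34 for the small subunit, paralogs and retrocopies included. The other 2, Rps19bp1, which encodes a partner of the Rps19 protein, and Rpl7l1, which encodes a relative of the Rpl7 protein, are not subunits and stay out of the subunit sums.

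All samples came from male C57BL/6 mice given the liver carcinogen diethylnitrosamine (DEN) once they were 14 days old, at 25 mg/kg, with the livers taken at 7 months, so the normal regions carry the carcinogen too. The 3 lesion libraries are from regions labelled as small tumours in which glycogen had stacked up, and the 3 normal libraries are from adjacent tissue. Regions were dissected from formalin-fixed, paraffin-embedded serial sections, and total RNA was sequenced after removal of ribosomal RNA. The labels do not tie a region to a mouse, so p-values measure the spread between these libraries and are too low where several regions came from a single animal. Totals were 7294716 to 7412833 counts in the lesion libraries and 6352898 to 6542997 in the normal libraries. Lesion 3 stood apart from lesions 1 and 2, and normal 1 from normals 2 and 3. Counts of lesion 3 deviated from those of lesions 1 and 2 by 11.2 times binomial sampling noise in squared deviation, against 1.57 times between lesions 1 and 2. Normal 1 deviated by 3.15 and 3.38 times from normals 2 and 3, which differed by 1.37 times. In a piece of bulk tissue, fewer cells of a type and less RNA per cell cannot be told apart.

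A ribosome joins a large subunit, which forms peptide bonds and holds the exit tunnel of the new chain, to a small subunit, which reads the messenger RNA. Each needs nearly all of its proteins in equal number. In mammals the messenger RNAs of these proteins begin with a C and a run of pyrimidines (the terminal oligopyrimidine tract, TOP). Through this tract the kinase mTOR and the binding protein Larp1 control their translation. Ribosomal protein mRNAs are among the most abundant messages of the liver, a tissue that exports much of the plasma protein.

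The short pyrimidine runs CTTTC and CTTTT were looked for near the start in the promoter windows of RefSeq (build GRCm38.p6). Each window is given 5′ to 3′ on the transcribed strand, 30 bases before the listed start and 30 from it on. Shown are the 6 higher and 4 lower subunit genes with a window that had the lowest p in each direction, with capitals on each CTTTC or CTTTT. Where a gene has several listed starts, the one with the nearest match is shown. The match lies before the listed start in Rpl13 and Rpl4 and after it in Rpl10a, Rpsa, Rpl12 and Rpl35a, so that Rpl13 and Rpl4 show none in the transcribed part. Rplp0 of the higher genes and Rps27l, Rps24 and Rpl36al of the lower ones hold no match to these letters. Other pyrimidine runs were not searched for, and Rps24 holds such a run across its listed start. The windows are Rpl13 at chr8:123102320-123102379, Rpl10a at chr17:28328535-28328594, Rpsa at chr9:120127736-120127795, Rpl4 at chr9:64173357-64173416, Rpl12 at chr2:32961682-32961741, Rplp0 at chr5:115559437-115559496, Rpl35a at chr16:33056452-33056511, Rps27l at chr9:66946056-66946115, Rps24 at chr14:24490648-24490707 and Rpl36al at chr12:69184038-69184097, the last on the minus strand and all others on the plus strand.
Rpl13: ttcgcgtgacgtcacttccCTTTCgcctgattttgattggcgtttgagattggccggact
Rpl10a: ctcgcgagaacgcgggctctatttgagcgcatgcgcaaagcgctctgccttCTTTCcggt
Rpsa: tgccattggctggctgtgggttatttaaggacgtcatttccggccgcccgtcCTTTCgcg
Rpl4: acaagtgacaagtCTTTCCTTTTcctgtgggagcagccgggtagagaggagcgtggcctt
Rpl12: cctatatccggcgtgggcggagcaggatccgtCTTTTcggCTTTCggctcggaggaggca
Rplp0: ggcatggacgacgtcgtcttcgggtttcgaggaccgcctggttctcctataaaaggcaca
Rpl35a: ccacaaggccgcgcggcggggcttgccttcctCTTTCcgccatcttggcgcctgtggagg
Rps27l: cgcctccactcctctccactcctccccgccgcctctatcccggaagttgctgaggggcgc
Rps24: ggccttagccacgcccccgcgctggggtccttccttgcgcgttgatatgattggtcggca
Rpl36al: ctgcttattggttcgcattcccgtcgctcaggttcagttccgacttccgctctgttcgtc

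RefSeq windows were matched for 66 of the 87 subunit genes. CTTTC or CTTTT, searched on the transcribed strand within 30 bases of a listed start, occurred in 28 of the 66 (42.4%), against 15.5% of all 27025 genes with a window and 13.8% of the 9970 tested genes with one. It was present in 14 of 30 members that were higher in the lesions, in 1 of 4 that were lower, in 8 of 25 that did not pass the test and in 5 of 7 that were not tested. CCGGAAG, the core bound by ETS factors, was searched on both strands of the whole 300-base window. It occurred in 26 of the 66 members (39.4%), against 9.93% of all genes and 19.4% of tested genes. By call it was present in 8 of 30 higher, 1 of 4 lower, 14 of 25 not passing and 3 of 7 untested members. AAGATGGC, bound by YY1, occurred in 5 members (7.58%) by the same search, against 3.19% of all genes and 5.20% of tested genes. TATAAA, searched on the transcribed strand in the 40 bases before a listed start, occurred in 1 member (1.52%), against 2.78% of all genes and 1.996% of tested genes. No difference between these shares was tested. Overlaps with other motifs were allowed. Listed starts need not be the base at which transcription began in this tissue.

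Many more ribosomal protein transcripts passed as higher than as lower in the glycogen-storing lesions, by modest amounts, with 27 of 47 tested genes higher in the large and 12 of 32 in the small subunit. The difference between the subunits was not tested. With edgeR's quasi-likelihood test at an adjusted p under 0.05, 81 of the 89 members could be tested. Of these, 39 were higher in the lesions (48.1% of those tested, where 18.7% of all 12506 tested genes were higher), 6 were lower (7.41%, where 18.4% of all genes were lower) and 36 did not pass. The median log2 fold change of lesion over normal was 0.18 over the members and 0.00 over all genes tested. Member values ran from -0.71 (Rps27l) to 0.66 (Rpl13), so no member changed by as much as 1 on that scale. All 3 lesion libraries lay above all 3 normal libraries in 41 members, and 24.2% of all tested genes did so. They lay below in 8 members, where 24% of all genes did so. In the authors' deposited table, 29 of 82 members with an adjusted p were higher and 3 lower, against 12.1% and 11.2% of all genes there. With lesion 3 and normal 1 both left out, 42 members were higher and 8 lower, against 21.0% and 20.8% of all genes. This setting was chosen after the data were seen.

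**Figure D1:**
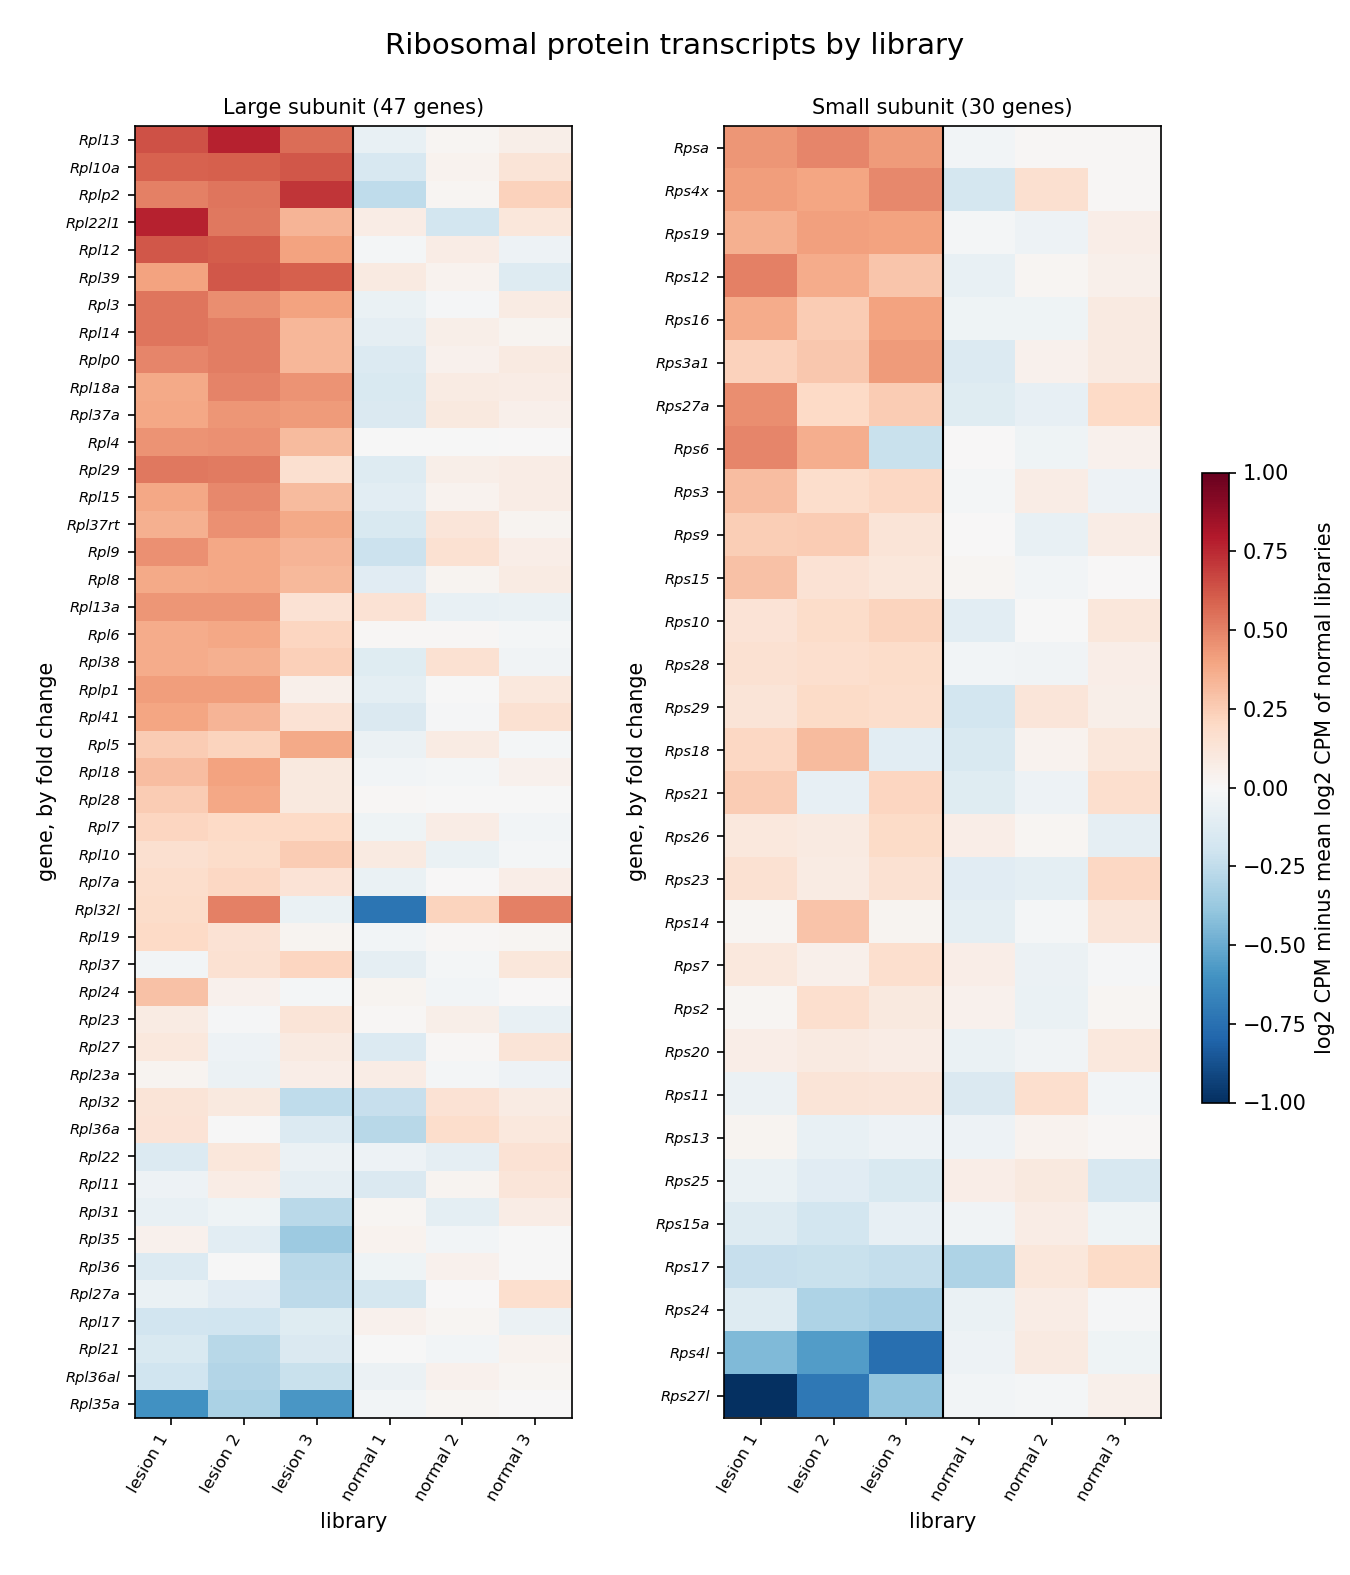
Log2 CPM of the 47 tested large subunit genes (left) and 30 of the 32 tested small subunit genes (right) in each library, as the difference from the mean of the 3 normal libraries, with genes ordered by fold change and the colour scale limited to 1 either way. Red fills most of the lesion columns from Rpl13 and Rpsa downwards, while Rpl35a, Rps4l and Rps27l at the bottom are blue in all 3 lesions, and lesion 3 is paler than the others in several genes, among them Rps6.

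Scaling sets the level of these changes. On the TMM scale used here the median of all genes was 0.00, and with library size alone it was -0.14. The members' median was then 0.04, with 22 members higher and 13 lower, against 11.8% and 28.9% of all genes. The higher share of member calls was 62.9% on that scale and 86.7% on the TMM scale. A change of scale moves all genes by nearly the same amount. The members' median therefore stayed 0.18 above that of all genes, which is no separate result. Albumin mRNA (Alb), the main secreted product of hepatocytes, took 7.25% to 8.84% of lesion counts and 3.37% to 3.72% of normal counts, and its part in the shift between the scales was not tested.

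In the large subunit, 27 of 47 tested genes were higher and 3 lower, with a median log2 fold change of 0.28. The clearest was Rpl13 (Entrez 270106, chromosome 8, 123102350 to 123105244); it had 165, 181 and 156 CPM (counts relative to the scaled library size) in the lesions, against 100.4, 107 and 110.1 CPM in the normal regions. The groups lay well apart, with a log2 fold change of 0.66 (SE 0.0695, edgeR adjusted p = 3.38e-07). Another RefSeq gene overlaps Rpl13, and the strand setting of the counting is unstated, so its reads are uncertain. Rpl10a, the protein of the flexible L1 stalk where spent transfer RNA leaves, had 118, 119 and 121 CPM in the lesions against 70.1, 80.3 and 85.9 CPM in normal tissue. The lesions were nearly level with each other, while the normal regions spread, at a log2 fold change of 0.60 (SE 0.0750, edgeR adjusted p = 3.32e-06).

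All 4 genes of the acidic stalk, which recruits the elongation factors, were higher, where 57.4% of tested large subunit genes and 18.7% of all tested genes were. Like the structural groups below, these 4 genes were put together after the members' values were known. The stalk is built from Rplp0, which anchors the P1 and P2 proteins of Rplp1 and Rplp2, beside Rpl12 at its base. Rplp2 had 76.5, 78.0 and 88.4 CPM in lesions, against 45.3, 54.6 and 63.3 CPM in normal regions (log2 fold change 0.57, SE 0.105, edgeR adjusted p = 0.000577). Rpl12 had 93.5, 92.4 and 80.0 CPM in lesions and 59.7, 63.9 and 58.6 CPM in normal regions, a log2 fold change of 0.55 (edgeR adjusted p = 1.9e-05). For Rplp0 the values were 274 ± 17.8 CPM in lesions and 201 ± 16.4 CPM in normal regions (SD, n = 3 each, log2 fold change 0.44). Rplp1 was the exception to a clean separation, since lesion 3 at 103 CPM lay among the normal regions at 93.0, 98.8 and 107 CPM, while lesions 1 and 2 both had 132 CPM. Its log2 fold change of 0.30 passed (edgeR adjusted p = 0.0192), but not without lesion 1, lesion 2, normal 1 or normal 2 (edgeR adjusted p = 0.0692, 0.0721, 0.102 and 0.0798).

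Among the proteins that line the peptidyl transferase centre and the tunnel wall, 5 of 6 were higher. Of tested large subunit genes 57.4% were higher, and of all tested genes 18.7%. This group, too, was put together after the values were known. Rpl4, whose loop reaches into the tunnel, was the member with the most counts, at 436, 439 and 397 CPM in the lesions and 318, 318 and 320.1 CPM in the normal regions. The normal regions hardly differed for Rpl4, and the gene had a log2 fold change of 0.41 (SE 0.0579, edgeR adjusted p = 1.43e-05). Rpl3, which reaches towards the catalytic site, had 153 ± 6.98 CPM in lesions and 110.4 ± 6.05 CPM in normal regions (log2 fold change 0.47, edgeR adjusted p = 1.69e-05). Rpl8, another protein close to the centre, was higher by 0.36, and Rpl39, a very small protein deep in the tunnel, by 0.54. Rpl10, whose protein joins the subunit last and opens the way to translation, had the smallest change that passed in this group, at 0.20 (edgeR adjusted p = 0.0157). Without normal 2 or normal 3 the Rpl10 call was lost (edgeR adjusted p = 0.118 and 0.0743). Rpl17, at the tunnel wall, had 63.7, 63.3 and 66.7 CPM in lesions and 74.8, 73.4 and 69.6 CPM in normal regions. All lesions lay below all normal regions there, but its log2 fold change of -0.17 did not pass (edgeR adjusted p = 0.0753). It passed without lesion 3 and with library size alone (edgeR adjusted p = 0.0266 and 0.00201).

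Around the mouth of the tunnel, where targeting factors and chaperones dock, none of the 5 tested genes passed. Their log2 fold changes were 0.13 for Rpl19, 0.01 for Rpl23a, -0.03 for Rpl22, -0.13 for Rpl31 and -0.13 for Rpl35, and with edgeR none had an unadjusted p under 0.05, nor did any pass with DESeq2 or limma-voom. Without lesion 3, Rpl19 passed (edgeR adjusted p = 0.0151). Library size alone turned Rpl19 and Rpl23a to -0.01 and -0.13, and Rpl31 then passed as lower (edgeR adjusted p = 0.0311). The sixth gene of that rim, Rpl26, is listed at 0 in all 6 libraries. These structural groups were put together after the members' values were known. Of all tested genes, 18.7% were higher and 18.4% lower, and no difference between the groups was tested.

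Rpl5 and Rpl11 form, with the 5S RNA, the particle that also binds and restrains Mdm2 when assembly fails. Rpl5 had 114, 112 and 125 CPM in lesions against 91.8, 101 and 94.7 CPM in normal regions, a log2 fold change of 0.28 (edgeR adjusted p = 0.0033). Rpl11 had 65.7, 71.3 and 63.7 CPM in lesions and 61.4, 69.0 and 73.8 CPM in normal regions. The groups overlapped fully for Rpl11, with a log2 fold change of -0.03 and a 95% interval from -0.20 to 0.15. The difference between both genes was not tested. Trp53, the target of Mdm2, was higher by 0.76 (edgeR adjusted p = 1.4e-05), its target Cdkn1a was higher by 0.86 (edgeR adjusted p = 0.00464), and Mdm2 had a log2 fold change of -0.08 (edgeR adjusted p = 0.531).

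Several large subunit genes with known roles of their own had smaller fold changes. Rpl13a, whose protein can leave the ribosome to silence inflammatory messages in human monocytes, had 88.6, 88.6 and 72.1 CPM in lesions and 72.3, 62.1 and 62.3 CPM in normal regions (log2 fold change 0.34, edgeR adjusted p = 0.00538). Rpl38, needed in the mouse embryo for translation of Hox messages, was higher by 0.32 (edgeR adjusted p = 0.0137), which was lost without normal 1 or normal 3 (edgeR adjusted p = 0.0830 and 0.0585). Rpl41 encodes a peptide that is the shortest of the ribosome. It was higher by 0.29 (edgeR adjusted p = 0.01), and the call was lost without normal 1 or normal 2 (edgeR adjusted p = 0.0723 and 0.0562). Rpl28 had 190.5, 209 and 171 CPM in lesions against 161, 159 and 159 CPM in normal regions. Its log2 fold change of 0.25 (edgeR adjusted p = 0.00755) was lost without lesion 2 (edgeR adjusted p = 0.0631). Rpl28, Rpl41 and Rpl4 were the large subunit genes with the highest level per length, at means of 349.9, 276 and 259 FPKM over the 6 libraries.

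In the small subunit, 12 of 32 tested genes were higher and 3 lower, with a median log2 fold change of 0.15. Rps4x, an X-linked gene whose protein sits in the subunit's body, had 198, 194 and 206 CPM in lesions against 131, 166 and 149 CPM in normal regions (log2 fold change 0.43, edgeR adjusted p = 0.000163).

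Rpsa, at the exit of the messenger RNA channel and also known as a laminin receptor, had 194, 199.8 and 191 CPM in lesions and 139.8, 144 and 144 CPM in normal regions. Both groups were tight, at a log2 fold change of 0.45 (SE 0.0593, edgeR adjusted p = 6.25e-06). Rps14, Rps26 and Rps28, also of the exit, had log2 fold changes of 0.11, 0.13 and 0.17 and did not pass. At the entry, Rps3, which also acts in DNA repair, was higher by 0.23 (edgeR adjusted p = 0.0164), while Rps2 had 252 ± 13.0 CPM in lesions and 236 ± 9.25 CPM in normal regions (log2 fold change 0.10, 95% interval -0.03 to 0.22). The Rps3 call was lost without lesion 1, normal 1 or normal 3 (edgeR adjusted p = 0.0842, 0.0646 and 0.0822). By level per length, Rps2, Rps29 and Rps4x led the small subunit, at means of 242, 219 and 178 FPKM.

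In the head of the small subunit 5 of 11 genes were higher, beside 48.1% of the tested members and 18.7% of all tested genes. Rps12, at its beak, had 90.2, 82.6 and 77.3 CPM in lesions and 60.6, 64.8 and 66.0 CPM in normal regions (log2 fold change 0.39, edgeR adjusted p = 0.000577). Rps19, the gene most often mutated in the human anaemia of Diamond and Blackfan, had 43.4, 45.1 and 44.8 CPM in lesions against 33.6, 32.7 and 35.6 CPM in normal regions (log2 fold change 0.39, edgeR adjusted p = 0.00156). Rps16, which reaches towards the peptidyl site, was higher by 0.34 (edgeR adjusted p = 0.000797). Rps27a and Rps15 were higher by 0.30 and 0.19 and depended on single libraries. The Rps15 call (edgeR adjusted p = 0.0469) was lost without any library other than lesion 3, at adjusted p from 0.0564 to 0.225. Rps25, needed for start at internal entry sites, had a log2 fold change of -0.12, and Rps29 of 0.16, neither of which passed (edgeR adjusted p = 0.31 and 0.122). With library size alone Rps25 passed as lower (edgeR adjusted p = 0.0248).

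Rps6, the protein phosphorylated by S6 kinase, had 189, 174 and 116 CPM in lesions and 135, 131 and 139 CPM in normal regions. Its SD of 38.7 CPM among lesions was the largest of any member. Lesions 1 and 2 were above and lesion 3 below all normal regions. Its log2 fold change of 0.24 did not pass (edgeR adjusted p = 0.416, 95% interval -0.28 to 0.77), and without lesion 3 it passed at an adjusted p of 1.44e-09.

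The 6 lower members were mixed in kind. Rps27l, a paralog of Rps27 that is a p53 target in human cells, had 8.69, 11.3 and 14.2 CPM in lesions and 18.3, 18.4 and 19.3 CPM in normal regions. Every lesion was lower than every normal region, at a log2 fold change of -0.71 (SE 0.154, edgeR adjusted p = 0.00118). Rpl35a (Entrez 57808, chromosome 16, 33056453 to 33060189), whose protein lies near the transfer RNA exit and whose gene is mutated in some patients with Diamond-Blackfan anaemia, had 22.2, 27.2 and 22.5 CPM in lesions. In the normal regions it had 33.1, 34.4 and 34.0 CPM, so that it went against most of its subunit, by -0.50 (SE 0.105, edgeR adjusted p = 0.000971). Another gene overlaps Rpl35a in RefSeq, and reads of both cannot be told apart without the strand setting of the counting, which the labels leave unstated. Rps24, of the same disease, had 57.6 ± 4.56 CPM in lesions and 68.7 ± 3.43 CPM in normal regions (log2 fold change -0.26, edgeR adjusted p = 0.0173). Rpl21, of the large subunit, had 91.1 ± 4.60 CPM in lesions and 104 ± 2.32 CPM in normal regions (log2 fold change -0.19, edgeR adjusted p = 0.0309). The Rps24 call was lost without lesion 2 or normal 2 (edgeR adjusted p = 0.0739 and 0.0954), and that of Rpl21 without any library other than lesion 3 (adjusted p from 0.0602 to 0.15). Of the 16 tested members known as Diamond-Blackfan genes in humans, 4 were higher, 2 were lower and 10 did not pass, with a median of 0.12. These shares, 25% and 12.5%, lie near the 18.7% and 18.4% of all tested genes.

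**Figure D2:**
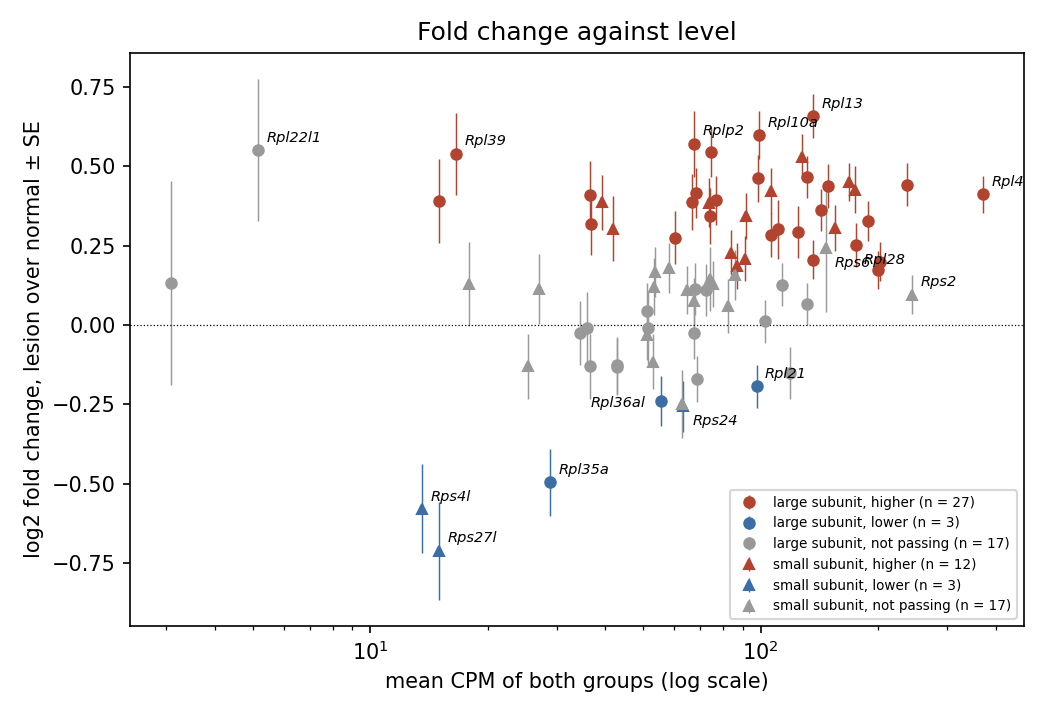
Log2 fold change of lesion over normal with its standard error (vertical axis) against mean CPM of both groups (horizontal, log scale) for the 79 tested subunit genes, circles for the large and triangles for the small subunit, red where higher, blue where lower and grey where the test was not passed. Higher genes gather at high levels, and the deepest of the lower genes, Rps27l, Rps4l and Rpl35a, sit below 30 CPM.

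Level and call went together within the family. Of the 26 subunit genes with the highest CPM, 20 were higher and 0 lower, with a median log2 fold change of 0.30. At the same levels, 27.4% of all genes were higher and 36.5% lower. In the middle 26 genes, 13 were higher and 2 lower, against 28.2% and 29.0% of all genes. In the lowest 27, 6 were higher and 4 lower, against 17.7% and 16.1%. Across the 79 genes the rank correlation of log2 fold change with level was 0.38, and it was -0.07 over all genes tested. These genes share libraries, and those with more counts are also tested with less error. Fold change hardly followed exonic length (rank correlation 0.08). A correction for length left 40 members higher and 6 lower, against 16.6% and 21.1% of all genes. Among genes of 500 to 1000 bases, 21 of 45 members were higher, where 13.5% of all genes of that length were.

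Features outside the rule gave further splits. Of subunit genes with small nucleolar RNA genes inside them, as in Rpl4 with 5, 18 of 29 tested were higher, and of those without, 21 of 50. Where no other RefSeq gene overlapped, 31 of 55 were higher, and where another did, 8 of 24. Rpl13, Rpl13a and Rpl5 are among those 8, and their reads are uncertain for that reason. Without paralogs and retrocopies, 38 of 73 were higher and 3 lower. RefSeq lists pseudogenes named for 59 of the tested subunit genes, and 30 of these were higher. Of all 79 tested subunit genes 49.4% were higher, and of all tested genes 18.7% were higher and 18.4% lower. None of these splits was tested.

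**Figure D3:**
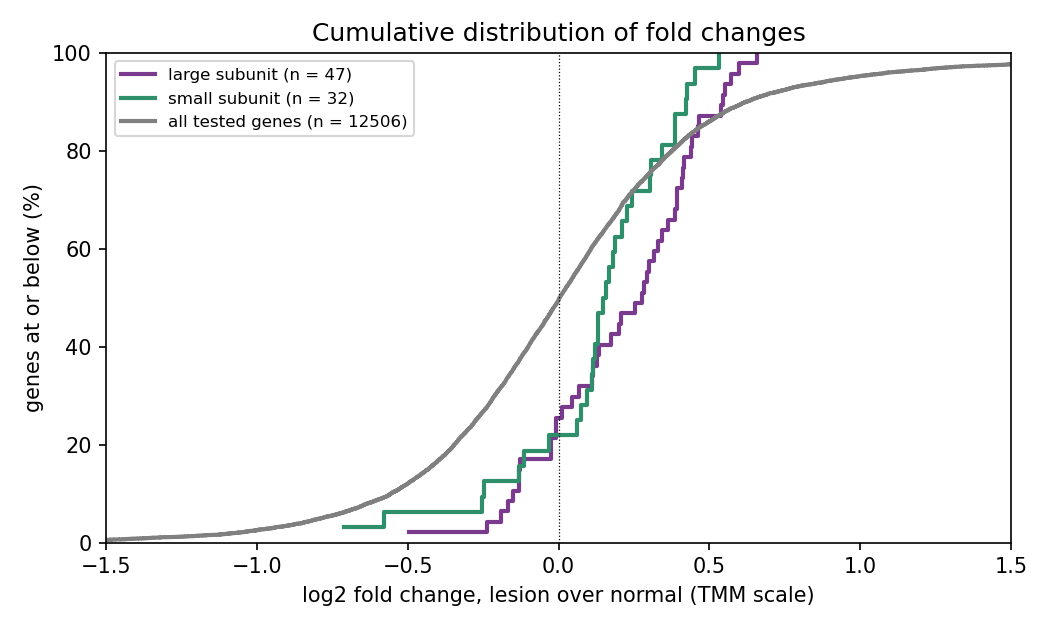
Cumulative distribution of log2 fold changes of lesion over normal (horizontal axis) as the percentage of genes at or below each value (vertical axis), for 47 large subunit genes, 32 small subunit genes and all 12506 tested genes. Fold changes of all genes beyond the axis limits are not shown. Around 0 both subunit curves lie to the right of the curve of all genes, and the large subunit curve ends at 0.66, inside the range of all genes.

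Summed over genes, the groups lay apart on the TMM scale and overlapped as shares of raw totals. Large subunit genes summed to 4824 ± 176 CPM in lesions and 4041 ± 142 CPM in normal regions, and small subunit genes to 2761 ± 51.6 CPM in lesions and 2393 ± 90.6 CPM in normal regions (SD, n = 3 each). No lesion lay among the normal regions in either sum. Large subunit genes took 0.473%, 0.476% and 0.429% of all counts in the lesions and 0.404%, 0.429% and 0.437% in the normal regions. The groups overlapped, because lesion 3 was level with normals 2 and 3, and the means were 0.459% ± 0.0264 in lesions and 0.423% ± 0.0170 in normal regions (SD, n = 3 each). Small subunit genes took 0.263% ± 0.0105 in lesions and 0.251% ± 0.0107 in normal regions, again with overlap. Rn45s, the row of the ribosomal RNA precursor, varied from 11.8% to 14.7% of lesion counts and from 10.6% to 12.7% of normal counts. With Rn45s and Alb taken out of the total, the large subunit share was 0.585% ± 0.0389 in lesions and 0.497% ± 0.0141 in normal regions. The small subunit share was then 0.335% ± 0.0164 in lesions and 0.294% ± 0.00918 in normal regions, and on that total no lesion lay among the normal regions for either subunit.

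The ratio of large to small subunit counts was 1.76, 1.77 and 1.71 in lesions and 1.69, 1.69 and 1.68 in normal regions. All 3 lesions were above all 3 normal regions, by a mean of 0.0582, and lesion 3 was the nearest to normal. In FPKM, where long genes weigh less, the ratio was 1.62 ± 0.0442 in lesions and 1.57 ± 0.0125 in normal regions, with overlap. Per library, the median member deviated from the normal mean by 0.22, 0.20 and 0.14 log2 units in lesions 1, 2 and 3 and by -0.06, 0.02 and 0.05 in normals 1, 2 and 3. Normal 1 was the lowest of all, and without it 28 members were higher and 7 lower, against 14.7% and 14.7% of all genes.

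**Figure D4:**
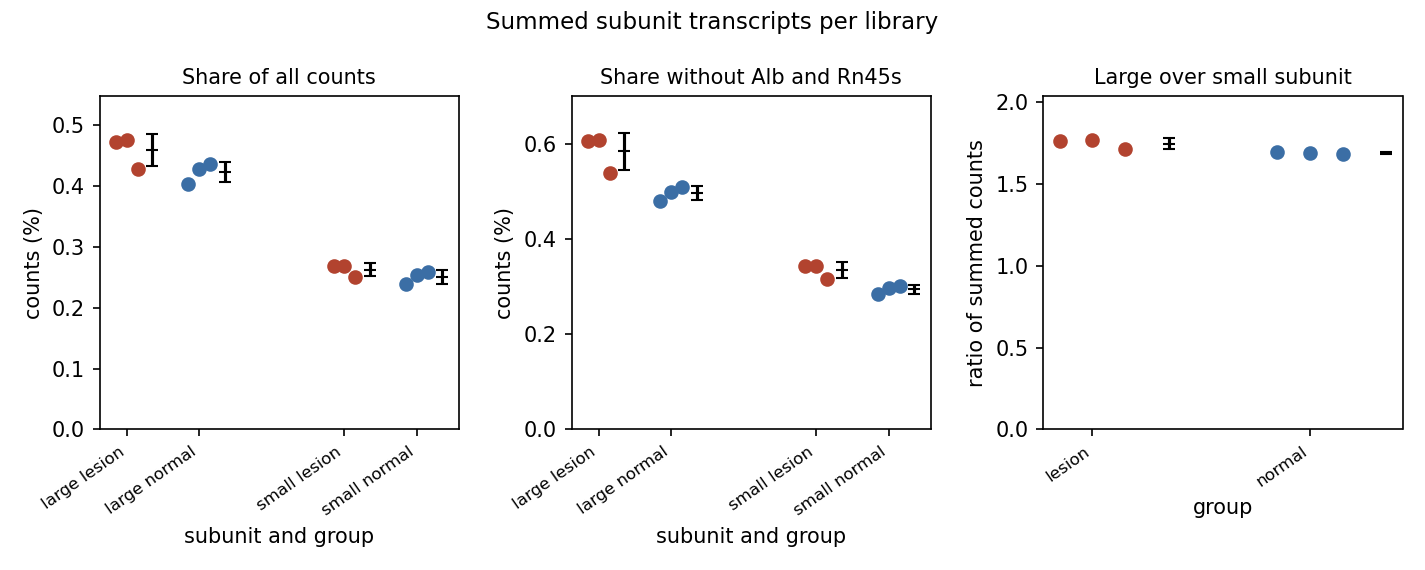
Summed subunit transcripts per library as a percentage of all counts (left), as a percentage of counts without Alb and Rn45s (middle) and as the ratio of large to small subunit counts (right), lesions in red and normal regions in blue, with the mean and SD of 3 libraries in black. Lesion 3 overlaps the normal regions in the left panel and lies above them in the others.

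Some paralogs of subunit genes did not follow their parents, although the differences between them were not tested. Rps4l, an autosomal relative of the X-linked Rps4x, had 12.0, 11.1 and 9.66 CPM in lesions and 15.7, 17.3 and 15.8 CPM in normal regions (log2 fold change -0.58, SE 0.140, edgeR adjusted p = 0.0029). With Rps4x higher, the share of Rps4l in the counts of both was 5.19% ± 0.639 in lesions and 9.93% ± 0.687 in normal regions, without overlap. Rps4l and Rps4x are close relatives, and another RefSeq gene overlaps Rps4l, so its reads are uncertain. Rpl36al had 52.4, 49.0 and 51.5 CPM in lesions and 57.6, 62.0 and 60.9 CPM in normal regions (log2 fold change -0.24, edgeR adjusted p = 0.0206), while Rpl36a overlapped between groups (-0.01, edgeR adjusted p = 0.957). The Rpl36al call was lost without lesion 2, normal 2 or normal 3 (edgeR adjusted p = 0.0861, 0.0855 and 0.0681). Its share of the pair was 58.8% ± 2.22 in lesions and 62.7% ± 3.00 in normal regions, with overlap.

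Rpl22l1, the paralog that the Rpl22 protein represses in mouse cells, had 7.12, 6.02 and 5.27 CPM in lesions and 4.38, 3.67 and 4.50 CPM in normal regions. The lesions were above the normal regions throughout, from 25 to 50 counts a library, but the log2 fold change of 0.55 did not pass (SE 0.224, edgeR adjusted p = 0.0602). It passed without lesion 3 (edgeR adjusted p = 0.0235). Rpl22 had a log2 fold change of -0.03 (95% interval -0.24 to 0.19), and the Rpl22l1 share of both was 15.3% ± 2.73 in lesions and 10.8% ± 0.762 in normal regions. Rpl7l1 had a log2 fold change of 0.05 and did not pass, while Rpl7 was higher by 0.21 (edgeR adjusted p = 0.0138, lost without normal 1 or normal 3, at 0.0670 and 0.0709).

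Rps27a, which encodes a small subunit protein fused to ubiquitin, had 51.6, 42.7 and 44.5 CPM in lesions and 34.3, 35.2 and 42.9 CPM in normal regions (log2 fold change 0.30, edgeR adjusted p = 0.0251). Lesion 2 lay just below the highest normal region, and the call was lost without lesion 1, normal 1 or normal 2 (edgeR adjusted p = 0.138, 0.135 and 0.126). The shares were not tested, and 3 against 3 libraries cannot pass an exact permutation test at 0.05.

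**Figure D5:**
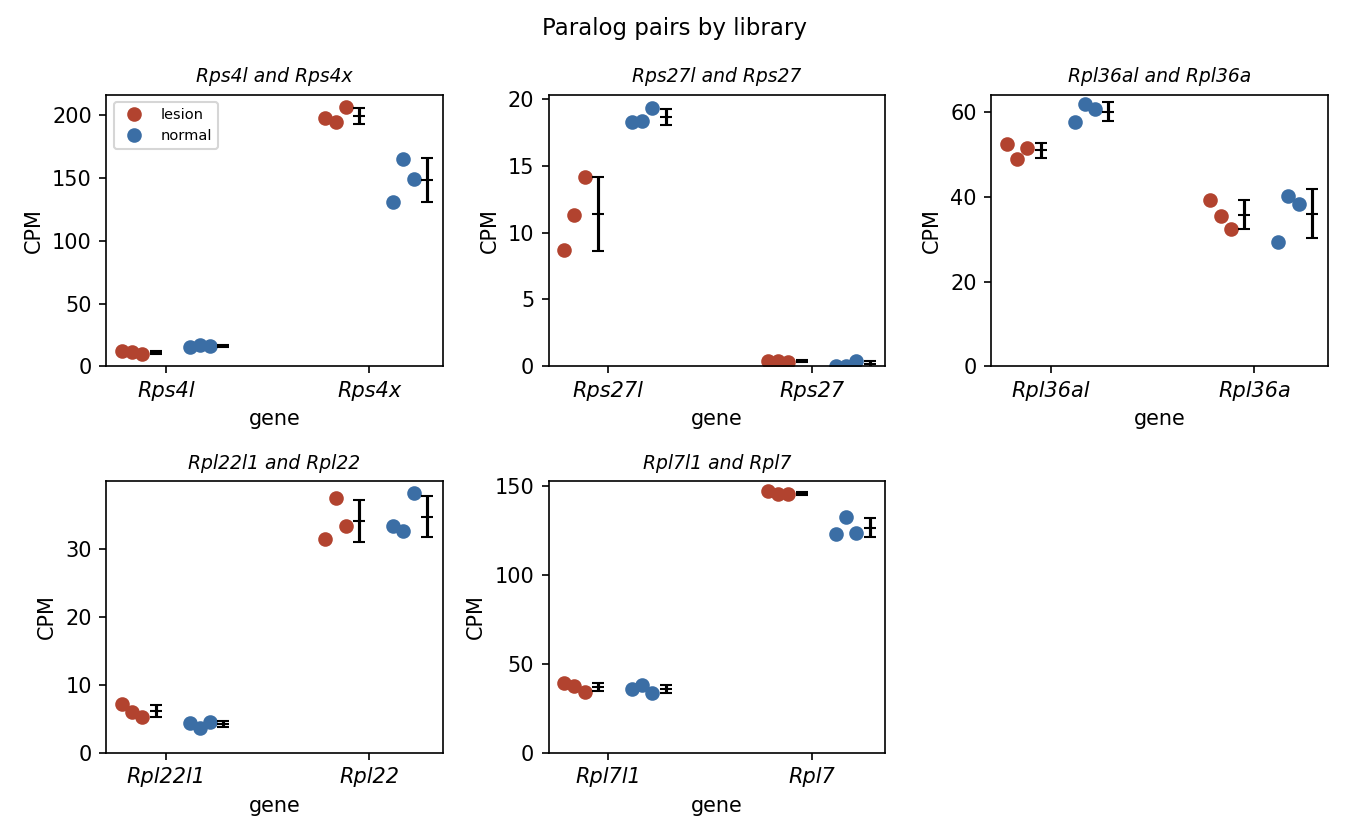
CPM in each library for 5 pairs of related genes, lesions in red left of normal regions in blue, with the mean and SD of 3 libraries in black. Rps4l is lower and Rps4x higher in lesions, and Rps27l is lower while Rps27 stays under 1 CPM.

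Too few counts for a test were present in 8 members. Rpl26, Rpl10l, Rpl39l and Rps27rt are listed at 0 in all libraries. Rps27 had 3, 3 and 2 counts in lesions and 0, 0 and 3 in normal regions, and Rpl30 had 0, 2 and 0 counts in lesions and 0, 1 and 2 in normal regions. Rpl34 had 7, 8 and 6 counts in lesions and 4, 8 and 3 in normal regions. Rpl3l, a muscle gene, had 0, 0 and 3 counts in lesions and 1, 3 and 2 in normal regions. Rpl26, Rpl30, Rpl34 and Rps27 encode constant parts of the ribosome, so their values cannot be read as absence of the transcript. How reads that match several places were counted is not given in the sources used here, and its part in these values was not tested. The share of Rps27l in the pair with Rps27 therefore has no meaning as a level.

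Among other genes of translation, Rack1, a scaffold on the small subunit head whose symbol is outside the rule, had 187 ± 12.3 CPM in lesions and 135 ± 11.2 CPM in normal regions (log2 fold change 0.47, edgeR adjusted p = 3.27e-05), and Fau, whose product holds Rps30, did not pass (0.14). Of 25 further genes with TOP messages, 11 were higher and 0 lower, with a median of 0.17, against 18.7% and 18.4% of all tested genes. Not all of the 25 act in translation, and Vim, Hnrnpa1, Cct4 and Ipo5 were among the higher ones. The poly(A)-binding protein gene Pabpc1 was higher by 0.71 and the elongation factor gene Eef2 by 0.34, while Eef1a1 had a log2 fold change of -0.02 (edgeR adjusted p = 0.817). Of 16 regulators of TOP messages, 3 were higher and 3 lower, with a median of 0.02, which is close to the 18.7% and 18.4% of all tested genes. Mtor was higher by 0.46, the translation repressor gene Eif4ebp1 by 0.53 and Larp1 by 0.28, and Rps6kb1, an S6 kinase gene, was lower, with a log2 fold change of -0.30 (edgeR adjusted p = 0.0138).

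Among 30 genes of ribosome production, 15 were higher and 0 lower, against 18.7% and 18.4% of all tested genes. Their median log2 fold change was 0.41, beside 0.18 for the members. Myc, a transcription factor that drives ribosome production, had 26.5, 31.1 and 22.4 CPM in lesions and 5.14, 7.05 and 4.35 CPM in normal regions (log2 fold change 2.27, SE 0.174, edgeR adjusted p = 5.12e-09). The processing factor genes Rrp12 and Mybbp1a were higher by 0.81 and 0.67, and Polr1a, the largest subunit of RNA polymerase I, by 0.50. Of 14 genes listed as chaperones, importers and assembly partners of ribosomal proteins, 3 were higher (Ipo4 by 0.75, Grwd1 by 0.69 and Bop1 by 0.40). Their share is close to the 18.7% of all tested genes, and Bop1 is also counted among the 30. Bccip was lower (log2 fold change -0.36). The difference between these lists and the members was not tested.

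Marker lists of liver cell types were measured beside the members. For the counts of calls below, 18.7% of all tested genes were higher and 18.4% lower. Hepatocyte markers summed to between 130156 and 158564 CPM in lesions and between 79978 and 86981 CPM in normal regions, with 3 of 12 genes higher and 5 lower and a median log2 fold change of -0.10. Alb alone averaged 82269 CPM in lesions and 34156 CPM in normal regions. Kupffer cell and macrophage markers were lower in 9 of 10 genes, with sums of 558 to 584 CPM in lesions against 906 to 989 CPM in normal regions. Cholangiocyte markers summed to 129 to 169 CPM in lesions and 28.1 to 29.2 CPM in normal regions, all but wholly from Spp1 and Sox9, the 2 that could be tested, while the other 6, among them Krt19, Krt7 and Epcam, stayed under 10 counts in every library. Lymphocyte markers summed to 37.0 to 40.7 CPM in lesions and 46.6 to 49.6 CPM in normal regions, mostly from Ptprc, a gene of all leukocytes, at 27.2 CPM in lesions and 37.5 CPM in normal regions. Ptprc was lower (log2 fold change -0.46, edgeR adjusted p = 0.00077). Cd3e and Cd8a, the only other genes of that list tested, did not pass (log2 fold changes 0.24 and -0.15), and 7 others in the table were not tested. Of 10 endothelial markers, 1 was higher and 1 lower, and of 10 stellate markers, 3 were higher and 2 lower. Erythroid markers summed to 54.4 to 63.4 CPM in lesions and 111 to 121 CPM in normal regions, with 3 of 7 at 0. Nearly all of that sum was Alas2, at 55.1 CPM in lesions and 112 CPM in normal regions, while Slc4a1 had a log2 fold change of 0.02 (edgeR adjusted p = 0.954). The part of these shifts in the ribosomal protein values was not tested.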

How the data were processed

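The data are RNA-seq counts of 6 dissected liver regions, 3 lesions and 3 normal adjacent regions. The submitters' processing notes name the build mm10 and list STAR 2.5.2b, DESeq2 1.24.0, cutadapt 1.18 and CASAVA 1.8 without saying what each did. Which program counted reads, on what annotation and with what strand setting, is not given in the sources used here. The authors deposited raw counts per Entrez gene, FPKM values (count over gene length and a scaled library size) and, per the file headers, a lesion against adjacent comparison with its scaled mean signal, log2 fold change, test score and p-value. Libraries were amplified with no molecular identifiers named in the labels, so errors from counting leave out PCR copies.

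From the counts, edgeR 4.0.16 (R 4.3.3) was run with its expression filter, TMM scaling, robust quasi-likelihood dispersions and the group as the only term, two-sided, with Benjamini-Hochberg adjustment over all 12506 tested genes, with calls at an adjusted p under 0.05. It was tested on simulated data made from these libraries. CPM uses TMM-scaled library sizes. Standard errors are the fold change over the root of the F statistic. Exonic lengths were solved from counts and FPKM, and came out whole within 1e-06 for all 18337 genes with a count. Coordinates, overlapping genes and promoters are RefSeq's for GRCm38.p6, matched by Entrez identifier for all 89 members.

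The members, gene lists and rule for named genes were chosen with earlier results of these data known; structural groups, motifs and the genes named only for those groups were chosen after the values here were seen. The rule names members with the lowest p per subunit and direction, the highest FPKM, paralog pairs, members with special roles, and up to 3 genes of each context list. Same-numbered lesion and normal libraries did not deviate together (correlations 0.01, -0.02 and -0.02), so they were not paired. Alternatives were other scalings, filters, tools (DESeq2 1.42.0, limma 3.58.1), thresholds, FPKM fits with pseudocounts of 1 and 0.1, a length correction, a replicate block and each library left out. Sequences of chromosome 18 genes were not used here. Results of 3 genes are not reported here.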

Additional observations from a re-analysis of the deposited data

How the results depend on the processing

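The members' direction held on every setting run, with a median log2 fold change above 0. With library size alone, 22 members were higher and 13 lower, against 11.8% and 28.9% of all genes, and the median was 0.0402. DESeq2 called 29 members higher and 3 lower, against 14.1% and 13.3% of all genes. At an adjusted p under 0.01, 27 were higher and 3 lower, against 12.4% and 12.6%. With the closest libraries summed (lesions 1 and 2, normals 2 and 3), added after the data were seen, 24 were higher and 3 lower. The shares of all genes were then 12.2% and 12.1%. Leaving out each library in turn gave 28 to 43 higher members, 3 to 8 lower ones and medians from 0.16 to 0.22. Without lesion 2 or without normal 2 there were 3 lower ones. Over all genes, these fits called 13.9% to 22.0% higher and 14.0% to 21.9% lower. With the replicate number as a block (replicate block), 38 were higher and 6 lower, against 18.3% and 17.9% of all genes. Without Alb and Rn45s in the total, the lesion over normal ratio was 1.177 against 1.08 for the large subunit share and 1.14 against 1.05 for the small subunit share. Of the 39 higher members, 22 passed under all 24 alternatives, and 13 lost their call without some library. Of the 6 lower members, 3 passed under all and 3 lost it without some library. None of the 45 turned direction.

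The reversals were in members that did not pass, 21 of 36 of which turned sign under some alternative, and 17 with library size alone. On that scale, for members named in the text, log2 fold changes were -0.0434 for Rps2, -0.0848 for Rpl7l1, -0.0105 for Rpl19 and -0.128 for Rpl23a. Leaving out each library in turn took Rpl22 through a range of -0.0966 to 0.0470, Rpl36a of -0.137 to 0.0739, Rpl11 of -0.0974 to 0.0348 and Rpl23a of -0.0174 to 0.0492. Rpl36a was at 0.00890 with the length correction and at 0.0129 with the closest libraries summed. The cause was not tested.

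At this depth, of 6352898 to 7412833 counts a library, the 95% interval of a member's log2 fold change had a median half-width of 0.17. Differences smaller than a member's own half-width were not detectable, and members under 10 counts a library could not be read. The intervals are not adjusted for the number of genes, so somewhat larger differences need not pass. Rpl22l1 did not, at a log2 fold change of 0.55 (95% interval 0.08 to 1.02, edgeR adjusted p = 0.0602).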

Other observations

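Names beside the rule gave a few values. Among the 10 S6 kinase names, Rps6ka4, a kinase of the stress response, had 17.0, 16.5 and 15.2 CPM in lesions and 6.05, 8.81 and 9.59 CPM in normal regions (log2 fold change 0.99, SE 0.165, edgeR adjusted p = 9.28e-05). Rps6kb1 was lower and the other 7 tested names did not pass. Of the 7 numbered pseudogenes, 3 could be tested and did not pass, with log2 fold changes of 0.14 for Rpl14-ps1, 0.20 for Rps15a-ps6 and -0.02 for Rpl31-ps12. Rpl37rt, a retrocopy that the rule keeps, had 16.5, 17.8 and 16.8 CPM in lesions and 11.6, 14.1 and 13.2 CPM in normal regions (log2 fold change 0.39, edgeR adjusted p = 0.0251), and was named after its values were seen. Its parent Rpl37 had a log2 fold change of 0.11 (edgeR adjusted p = 0.299), and reads of such copies are uncertain.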
